A study of Mus musculus with 8 samples.

Results

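The C-type lectin receptor genes were followed through the lungs of mice that over-express the NF-kB subunit p52 in the airway epithelium and of WT littermates, with and without lipopolysaccharide (LPS). Members were the genes whose symbol is Clec with a number or Cd209 with a letter, together with Cd69, Klrk1, Klrd1, Klrg1 and Olr1, read from probe sets with exactly 1 gene symbol. This gave 44 of the 18820 genes measured, on 45 probe sets, and the probe set with the highest mean stood for a gene. The rule reads gene symbols, and measured values only to choose between 2 probe sets of Clec4g. Whole lung RNA was read on 8 microarrays, each holding the pooled RNA of 3 mice, with 2 pools per group. The groups were CCSP-p52 mice with LPS, WT mice with LPS, CCSP-p52 mice on doxycycline (dox) alone and WT mice on dox alone. CCSP-p52 mice express FLAG-tagged p52 from a dox-dependent transgene (CCSP-rtTA with CCSP-tTS and (tet-O)7-FLAG-p52) that the Clara cell secretory protein promoter limits to airway epithelial cells, and WT mice were littermates without the genotype. All mice were FVB, 8 to 12 weeks old and of both sexes, and all of them, WT included, drank dox at 2 g/L with sucrose for 1 week. The LPS groups also received LPS through the trachea 48 h before harvest.

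C-type lectins are proteins built around a carbohydrate-recognition-like fold, and many of them sit on myeloid cells as sensors of fungi, mycobacteria and dead cells. The activating receptors, among them Mincle (Clec4e), MCL (Clec4d), Dectin-2 (Clec4n) and MDL-1 (Clec5a), carry no signalling motif of their own and pair with the adaptors FcRgamma (Fcer1g) or DAP12 (Tyrobp), which recruit the kinase Syk and then the Card9, Bcl10 and Malt1 complex. Dectin-1 (Clec7a) reaches Syk through its own tail, whereas receptors such as DCIR (Clec4a2) and MICL (Clec12a) carry inhibitory motifs that recruit phosphatases. Other members of the family mark natural killer (NK) and T cells, endothelium or platelets, and some are soluble.

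The log2 values of the 2 pools of a group were correlated over the 21218 probe sets with 1 gene symbol. The r was 0.981 in CCSP-p52 LPS, 0.985 in WT LPS and 0.996 in both CCSP-p52 dox and WT dox. The array medians over all probe sets lay between 7.48 and 7.54. Nfkb2, which encodes p52 and its precursor, was higher in CCSP-p52 than in WT lungs over all 8 arrays by a logFC of 0.47 (standard error 0.18). This met the p52 cut-off used here, a logFC of at least 0.41 in size with an unadjusted p of at most 0.05, but not adjustment. Without LPS its logFC was 0.72 (standard error 0.23) and met the cut-off. With LPS it did not (0.21, standard error 0.23), and the pools overlapped, at 11.28 and 10.53 in CCSP-p52 LPS against 10.83 and 10.56 in WT LPS. The lung epithelium markers Sftpc, Sftpb, Scgb1a1, Ager, Foxj1 and Hopx had a summed linear level of 30529 to 48163 in the LPS pools and 49989 to 52737 in the dox pools. WT LPS pool 2 stood apart: its striated muscle markers summed to 11157, against 989 to 1939 in the other 7 pools, and its squamous epithelium markers to 14180, against 524 to 609. The values of the member genes are given with that pool, and the LPS calls were the same 17 and 9 genes without it. Nothing in the sources used here says what the pools of one number share, so p-values measure the spread between pools of 3 mice.

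The promoters of 5 members are shown as examples, chosen after their values were seen, of genes that rose after LPS (Clec4e, Clec4d and Clec12a) and genes that fell (Clec9a and Cd209a). The sequences are RefSeq's on GRCm38.p6, from 250 bases before to 50 bases after the annotated start, 5′ to 3′ on the gene's strand. Capitals mark matches on either strand to GAGGAA (a core of PU.1 and Ets family sites), TTGCNNAA (of C/EBP sites) or TGANTCA (a loose form of AP-1 sites). The middle base of TGANTCA was left free, and in the Clec12a match it is A. The NF-kB consensus (kB) was searched as well.
Clec4e promoter, chr6:123289822-123290121, minus strand: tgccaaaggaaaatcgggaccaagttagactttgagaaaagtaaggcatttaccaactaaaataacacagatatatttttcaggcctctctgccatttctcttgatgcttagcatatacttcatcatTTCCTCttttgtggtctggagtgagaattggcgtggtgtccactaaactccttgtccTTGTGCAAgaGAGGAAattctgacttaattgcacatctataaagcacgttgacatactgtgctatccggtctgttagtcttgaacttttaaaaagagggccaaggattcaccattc
Clec4d promoter, chr6:123261857-123262156, plus strand: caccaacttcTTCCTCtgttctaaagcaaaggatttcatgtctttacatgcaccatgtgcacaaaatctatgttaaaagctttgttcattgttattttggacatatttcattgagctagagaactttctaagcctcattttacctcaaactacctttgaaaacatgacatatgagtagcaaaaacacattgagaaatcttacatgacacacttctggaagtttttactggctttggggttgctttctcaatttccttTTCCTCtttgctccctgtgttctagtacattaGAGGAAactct
Clec12a promoter, chr6:129349994-129350293, plus strand: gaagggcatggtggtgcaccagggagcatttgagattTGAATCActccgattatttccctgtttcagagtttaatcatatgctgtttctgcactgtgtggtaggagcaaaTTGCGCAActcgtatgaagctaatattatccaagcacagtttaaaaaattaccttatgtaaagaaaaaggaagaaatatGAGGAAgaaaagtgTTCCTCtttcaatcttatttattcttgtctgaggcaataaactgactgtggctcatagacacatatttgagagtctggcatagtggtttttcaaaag
Clec9a promoter, chr6:129408612-129408911, plus strand: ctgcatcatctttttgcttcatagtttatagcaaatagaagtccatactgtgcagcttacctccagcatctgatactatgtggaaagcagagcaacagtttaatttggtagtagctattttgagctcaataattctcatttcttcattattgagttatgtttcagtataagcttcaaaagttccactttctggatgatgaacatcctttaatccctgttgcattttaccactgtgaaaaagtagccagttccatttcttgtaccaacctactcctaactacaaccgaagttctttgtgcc
Cd209a promoter, chr8:3748935-3749234, minus strand: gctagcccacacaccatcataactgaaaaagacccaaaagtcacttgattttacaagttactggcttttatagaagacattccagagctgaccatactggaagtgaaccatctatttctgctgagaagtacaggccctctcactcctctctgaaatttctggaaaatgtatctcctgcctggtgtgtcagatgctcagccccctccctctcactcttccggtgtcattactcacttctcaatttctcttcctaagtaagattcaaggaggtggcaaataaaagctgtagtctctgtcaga

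GAGGAA occurred 2 times in the Clec4e window, 3 times in the Clec4d window and 2 times in the Clec12a window, and in neither the Clec9a nor the Cd209a window, but it was present in those of Clec14a and Clec11a, which also fell. In Clec4e a match to TTGCNNAA lies 2 bases from a GAGGAA, and Clec12a holds a TTGCNNAA and a TGANTCA match. RefSeq windows were matched by symbol for 35 of the 44 members, and where a gene had more than 1 window a match in any of them counted. The shares of all promoters count each window singly instead, so a member with several windows had more chances to match. GAGGAA was in 9 of 12 members that rose after LPS, 2 of 7 that fell and 6 of 16 that did not pass, against 28.3% of 32851 promoters. TGANTCA was in 5 of 12, 0 of 7 and 5 of 16 (7.81% of all promoters), TTGCNNAA in 3 of 12, 2 of 7 and 2 of 16 (10.8%), and the kB consensus in 0 of 12, 0 of 7 and 2 of 16 (8.46%). A match is only a run of letters, and no binding was measured.

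LPS moved the family in both directions, and it held both extremes of the response. In the additive model, which fits LPS and p52 as 2 factors over the 8 arrays, Clec4e had the largest rise of all 18820 genes (logFC 5.78, 54.9-fold) and Cd209a the largest fall (logFC -2.81, 7.00-fold lower). Of the 44 members, 17 rose (38.6%), where 13.5% of all genes did, and 9 fell (20.5%), where 20.8% of all genes did. A gene was called here at a Benjamini-Hochberg adjusted p under 0.05 from limma over all 21218 probe sets tested. The members' median logFC was 0.054 and that of all genes 0.0046. By role, the 17 rises were 8 in the Dectin-2 and DCIR cluster, 3 in the Dectin-1 cluster, Clec5a, 1 among the DC-SIGN and glycan receptors and 4 in the NK receptor complex. In whole lung RNA, fewer cells of a type and less RNA per cell cannot be told apart.

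**Figure D1:**
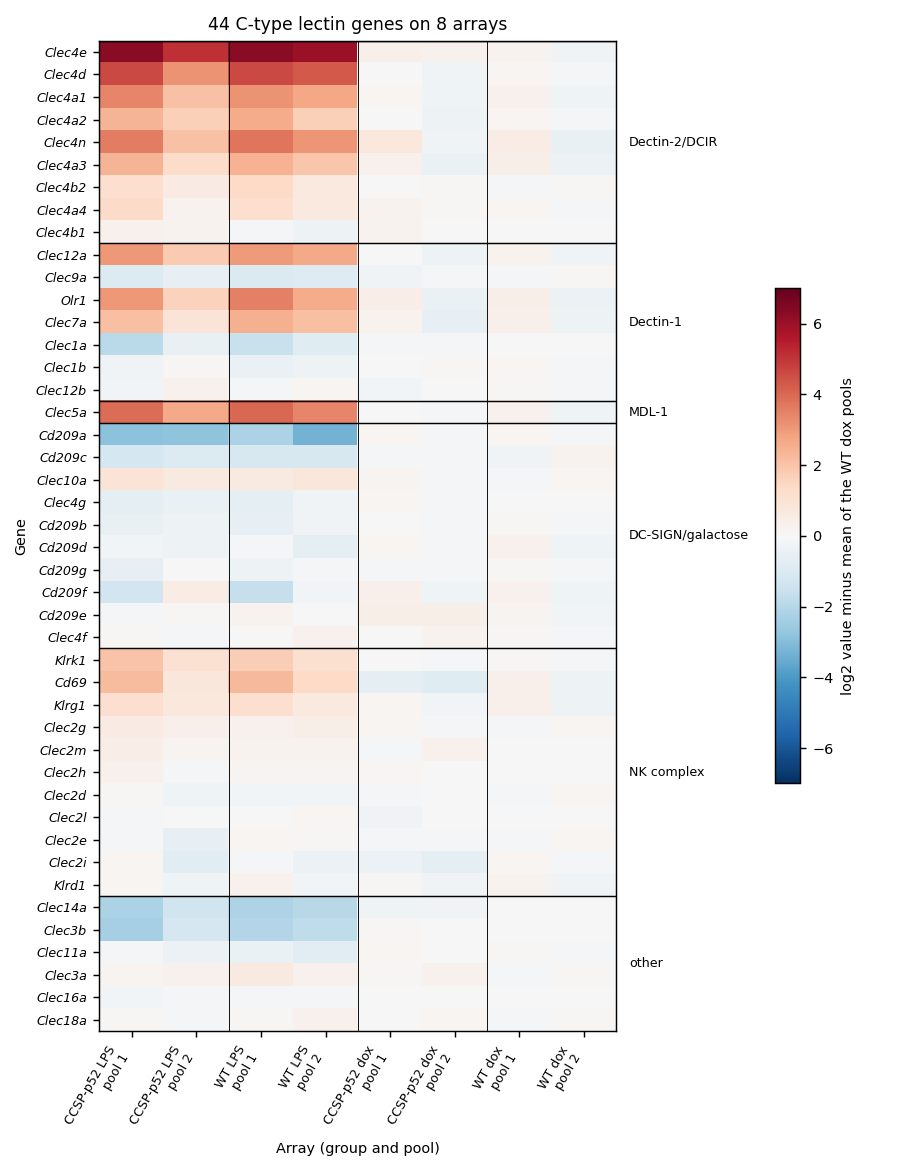
Log2 value of each of the 44 genes (rows, by role) on each of the 8 arrays (columns, by group and pool) minus the mean of the WT dox pools, in colour. The 4 LPS columns on the left show Clec4e, Clec4d and Clec5a as the reddest rows and Cd209a, Clec3b and Clec14a as the bluest, while the 4 dox columns stay near 0.

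The Dectin-2 and DCIR cluster rose nearly as a block: 8 of its 9 members passed and none fell, with a median logFC of 2.18. Clec4e, the Mincle receptor for mycobacterial cord factor and for a nuclear protein of dying cells, had log2 values of 12.76 and 11.55 in the CCSP-p52 LPS pools and 12.79 and 12.50 in the WT LPS pools, against 6.82 and 6.76 in CCSP-p52 dox and 6.73 and 6.18 in WT dox. The lowest LPS pool lay more than 4 log2 units above the highest dox pool (logFC 5.78, standard error 0.28, adjusted p = 3.35e-05). Clec4d, whose product MCL pairs with Mincle, stood at 11.09 and 9.60 in CCSP-p52 LPS and 11.09 and 10.76 in WT LPS, against 6.47 and 6.22 in CCSP-p52 dox and 6.62 and 6.31 in WT dox. Its groups did not overlap either, and its logFC of 4.23 (standard error 0.30, adjusted p = 0.000107) ranked 19 among all genes. Clec4n, Dectin-2, which binds fungal mannans, read 10.72 and 9.15 in CCSP-p52 LPS and 10.86 and 10.23 in WT LPS, against 7.88 and 6.88 in CCSP-p52 dox and 7.66 and 6.58 in WT dox. Its pools were less even, and the logFC was 2.99 (standard error 0.42, adjusted p = 0.00154).

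The DCIR genes, which lie beside them, rose too. Clec4a2, the inhibitory receptor DCIR itself, had 8.67 and 7.97 in CCSP-p52 LPS and 8.87 and 7.94 in WT LPS, against 6.26 and 5.90 in CCSP-p52 dox and 6.41 and 6.15 in WT dox (logFC 2.18, standard error 0.23). Clec4a1 had a logFC of 2.87 (standard error 0.29) and Clec4a3 one of 2.07 (standard error 0.30). Clec4b2 (0.92, standard error 0.18) and Clec4a4 (0.77, standard error 0.23, adjusted p = 0.035), both named after their values were seen, are below the 20th percentile of mean level. The call of Clec4a4 was lost in 11 of 19 alternatives, among them the omission of any single pool but the second pools of the LPS groups (logFC of 0.59 to 1.02 over the 8 omissions). The remaining gene, Clec4b1, which encodes the FcRgamma-coupled receptor DCAR, did not pass (logFC -0.03, standard error 0.12, 95% interval -0.30 to 0.23). Its log2 values lay between 4.08 and 4.76 on all arrays. The Clec4a and Clec4b genes are close paralogs, and the sources do not say how far their probes read each other's transcripts.

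The Dectin-1 cluster split, with 3 of 7 members higher, 2 lower and 2 not passed. Clec12a, the inhibitory receptor MICL for uric acid crystals, had 11.18 and 9.94 in CCSP-p52 LPS and 11.10 and 10.77 in WT LPS, against 8.17 and 7.78 in CCSP-p52 dox and 8.36 and 7.88 in WT dox (logFC 2.70, standard error 0.26). Olr1, the LOX-1 receptor for oxidised lipoproteins, had 10.01 and 8.58 in CCSP-p52 LPS and 10.49 and 9.59 in WT LPS, against 7.47 and 6.55 in CCSP-p52 dox and 7.39 and 6.58 in WT dox (logFC 2.67, standard error 0.39). Clec7a, Dectin-1, the receptor for fungal beta-glucan, had 10.06 and 8.86 in CCSP-p52 LPS and 10.46 and 10.05 in WT LPS, against 8.23 and 7.42 in CCSP-p52 dox and 8.33 and 7.60 in WT dox (logFC 1.96, standard error 0.32). In all 3, every LPS pool lay above every dox pool.

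Clec9a, the DNGR-1 receptor by which cross-presenting dendritic cells detect the actin of dead cells, fell by 0.79 (standard error 0.12, adjusted p = 0.00172). Its log2 values were 6.89 and 7.28 in CCSP-p52 LPS and 6.85 and 6.94 in WT LPS, against 7.62 and 7.78 in CCSP-p52 dox and 7.80 and 7.93 in WT dox, without overlap. Clec1a, a lectin of endothelial cells that recognises melanin of Aspergillus spores, fell by 1.13 (standard error 0.29, adjusted p = 0.0169). Its LPS pools were uneven, at 9.54 and 10.95 in CCSP-p52 LPS and 9.86 and 10.60 in WT LPS, against 11.28 and 11.30 in CCSP-p52 dox and 11.45 and 11.44 in WT dox. The call of Clec1a was lost without WT LPS pool 1 (logFC -0.97) and without WT dox pool 1 (-1.11). Clec1b, the platelet receptor CLEC-2 for podoplanin, did not pass (logFC -0.27, standard error 0.11, adjusted p = 0.0885), nor did Clec12b (0.08, standard error 0.12). Clec5a, MDL-1, which signals through DAP12, belongs to none of these clusters and rose with a logFC of 3.52 (standard error 0.29, adjusted p = 0.000174). Its values were 10.47 and 9.19 in CCSP-p52 LPS and 10.58 and 10.00 in WT LPS, against 6.62 and 6.41 in CCSP-p52 dox and 6.88 and 6.25 in WT dox.

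**Figure D2:**
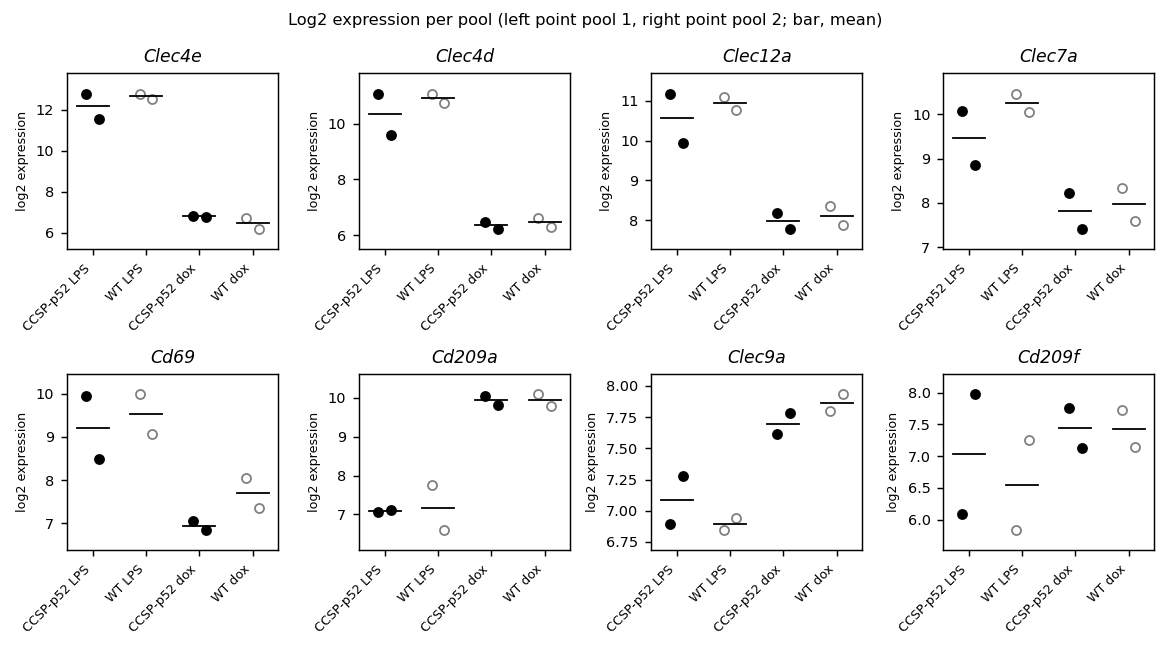
Log2 expression (vertical axis, scaled per gene) of 8 genes in the 4 groups, with 1 point per pool (filled, CCSP-p52; open, WT; pool 1 left) and a bar at the mean of the 2 pools. Clec4e, Clec4d, Clec12a, Clec7a and Cd69 are higher in every LPS pool than in any dox pool, Cd209a and Clec9a are lower, and the LPS pools of Cd209f spread from 5.84 to 7.97.

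Of the 10 DC-SIGN and glycan receptors, 4 fell, 1 rose and 5 did not pass. Cd209a, the mouse DC-SIGN of dendritic cells, had 7.05 and 7.11 in CCSP-p52 LPS and 7.75 and 6.60 in WT LPS, against 10.05 and 9.83 in CCSP-p52 dox and 10.09 and 9.78 in WT dox. All LPS pools lay more than 2 log2 units below the dox pools (logFC -2.81, standard error 0.22, adjusted p = 0.00015). Cd209c, a further DC-SIGN paralog, fell by 1.06 (standard error 0.12), Clec4g, the LSECtin of sinusoidal endothelium in the liver, fell by 0.53 (standard error 0.10), and Cd209b, the SIGNR1 of marginal zone macrophages in the spleen, fell by 0.40 (standard error 0.09). A second probe set of Clec4g did not follow (logFC 0.11, standard error 0.11). The single member that rose was Clec10a, a galactose-type lectin of macrophages and dendritic cells, with 7.98 and 7.68 in CCSP-p52 LPS and 7.68 and 7.87 in WT LPS, against 7.24 and 6.98 in CCSP-p52 dox and 6.93 and 7.17 in WT dox (logFC 0.72, standard error 0.11, adjusted p = 0.00171). Cd209d did not pass (logFC -0.32, standard error 0.17), except with the pool number as a block in the model. Cd209f had the widest spread within a group of all members. Its values were 6.09 and 7.97 in CCSP-p52 LPS and 5.84 and 7.26 in WT LPS, against 7.77 and 7.14 in CCSP-p52 dox and 7.73 and 7.14 in WT dox, and the logFC was -0.65 (standard error 0.45, adjusted p = 0.311). Both first LPS pools lay below all dox pools and both second ones did not, and without CCSP-p52 LPS pool 2 the gene passed as lower (-1.07).

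Of the 11 genes of the NK receptor complex and its ligands, 4 rose and none fell. Cd69, an early activation antigen of lymphocytes that holds them in tissue, had 9.94 and 8.50 in CCSP-p52 LPS and 9.98 and 9.07 in WT LPS, against 7.05 and 6.85 in CCSP-p52 dox and 8.05 and 7.35 in WT dox (logFC 2.05, standard error 0.34, adjusted p = 0.00285). Klrk1, the activating receptor NKG2D, had 7.91 and 6.98 in CCSP-p52 LPS and 7.61 and 7.01 in WT LPS, against 5.87 and 5.80 in CCSP-p52 dox and 5.96 and 5.83 in WT dox (logFC 1.51, standard error 0.20, adjusted p = 0.00124). Klrg1, an inhibitory receptor that binds cadherins, rose with a logFC of 0.95 (standard error 0.18), and Clec2g with one of 0.41 (standard error 0.09). Klrd1, the CD94 chain of NK cells, did not pass, with a logFC of 0.02 (95% interval -0.36 to 0.39). Clec2d, the ligand of the inhibitory receptor NKR-P1B, likewise did not pass (-0.11, 95% interval -0.33 to 0.12). The 7 genes that did not pass ranged from -0.11 to 0.25.

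Among the 6 soluble, endothelial and other members none rose and 3 fell. Clec3b, tetranectin, a secreted protein that binds plasminogen, had 7.78 and 8.92 in CCSP-p52 LPS and 8.04 and 8.30 in WT LPS, against 10.17 and 10.11 in CCSP-p52 dox and 10.11 and 10.07 in WT dox (logFC -1.86, standard error 0.21, adjusted p = 0.000642). Clec14a, a membrane lectin of endothelium with a role in angiogenesis, had 8.93 and 9.74 in CCSP-p52 LPS and 8.99 and 9.20 in WT LPS, against 10.85 and 10.90 in CCSP-p52 dox and 11.16 and 11.12 in WT dox (logFC -1.79, standard error 0.18, adjusted p = 0.000374). Neither overlapped between LPS and dox. Clec11a, a secreted growth factor of the bone marrow, fell by 0.46 (standard error 0.12, adjusted p = 0.0176), with a call that was lost without WT dox pool 1 (-0.39). Clec3a, Clec16a and Clec18a did not pass and ranged from -0.12 to 0.25.

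Markers of several cell types moved with these genes, and their part in the values was not tested. All 7 neutrophil markers measured rose, with a summed linear level of 13717 to 21385 in the LPS pools and 1160 to 1774 in the dox pools. All 6 markers of monocytes and recruited macrophages rose as well, at 8004 to 16518 with LPS and 2465 to 3012 with dox alone. All 7 endothelial markers fell, at 15460 to 24027 with LPS and 32928 to 35906 with dox alone, beside the falls of Clec14a and Clec1a. Among 8 markers of conventional dendritic cells, to set beside Clec9a and Cd209a, 1 rose and 3 fell, and the sums overlapped at 2144 to 2803 with LPS and 2377 to 2688 with dox alone. Those that passed were Batf3 (logFC 0.35), Itgae (-0.31), Zbtb46 (-0.35) and Cd207 (-0.46), and Xcr1, a marker of the dendritic cells that carry Clec9a, did not (-0.03). Of 6 NK cell markers 3 rose, Gzma, Prf1 and Ncr1, while 0 of 7 T cell markers passed in either direction. Of 7 alveolar macrophage markers 2 rose and 1 fell, 2 of 4 B cell markers fell, and 1 of 5 platelet markers rose. Of all genes, 13.5% rose and 20.8% fell.

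The signalling genes behind the receptors rose with them: 10 of 15 measured passed as higher and none as lower. The adaptor Fcer1g had a logFC of 2.81 (standard error 0.28), Malt1 one of 2.29, the exchange factor Vav1 one of 2.16 and the adaptor Tyrobp one of 1.94. Syk (1.64) and Bcl10 (0.53) passed too, whereas Card9 did not (0.17, standard error 0.10, adjusted p = 0.24). Of 13 ligands and partners of the NK receptors and CLEC-2, 7 rose and 1 fell. Raet1e, an NKG2D ligand, had the largest of these (logFC 1.50, standard error 0.19), and H60b, a further NKG2D ligand, one of 0.71. H2-T23, which encodes the Qa-1 ligand of CD94, had a logFC of 0.72 and Klrb1f one of 0.60. Among 25 other genes with a C-type lectin domain, 5 rose and 6 fell. The shares of all genes to set beside these lists were 13.5% higher and 20.8% lower. The counts of the 25 lie near them and are not read as a trait of such genes. Selp, the P-selectin of platelets and endothelium, rose with a logFC of 2.28 and so did Cd72, an inhibitory receptor of B cells, whereas the mannose receptor relatives Mrc2 and Pla2r1 fell by 1.16 and 1.19.

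Over the 8 arrays, the genes whose log2 values ran most like those of Clec4e among 96 members and pathway genes compared were Clec4d (Pearson r = 0.995), Clec5a (0.993), Selp (0.990), Fcer1g (0.987) and Clec12a (0.986). For Clec9a they were Clec14a (0.989), Pla2r1 (0.984), Clec3b (0.971), Cd209c (0.970) and Thbd (0.966). These r describe 8 points that fall into LPS and dox pools, so they share that contrast. In the order of protein-coding genes, 9 members from Clec4a1 to Clec4e lie next to each other, and 8 of them rose. A run of 11 from Clec2e to Olr1 held genes that moved in opposite directions, with 4 higher (Cd69, Clec12a, Clec7a and Olr1) and 2 lower (Clec9a and Clec1a). A further run of 8, from Clec4g through the Cd209 genes, held 4 that fell and none that rose.

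Whether p52 in the airway epithelium changes the family was asked in 3 comparisons, with calls made at that p52 cut-off. The size of 0.41 is the one the study used to pick genes higher with p52, and it was applied here in both directions. In the additive model 0 of 44 members reached that mark, where 0.271% of all genes did. At an unadjusted p under 0.05 alone there was 1 member, Clec4b1 (logFC 0.31, standard error 0.12), and 0 had an adjusted p under 0.05. Effects ranged from -0.53 for Cd69 (95% interval -1.31 to 0.25) to 0.31 for Clec4b1. For Clec4e, the gene with the largest LPS effect, the p52 effect was -0.08 with a 95% interval of -0.73 to 0.58.

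In lungs on dox alone, CCSP-p52 against WT, again 0 of 44 members were at the cut-off, against 0.733% of all genes, and 1 had an unadjusted p under 0.05. That was Cd209e, at 5.96 and 5.96 in CCSP-p52 dox against 5.74 and 5.40 in WT dox (logFC 0.39, standard error 0.16), and none had an adjusted p under 0.05. With LPS, 2 members were at the cut-off (4.55%), against 2.06% of all genes. Clec4b1 was higher, with 4.76 and 4.66 in CCSP-p52 LPS against 4.30 and 4.08 in WT LPS (logFC 0.52, standard error 0.13, adjusted p = 0.689 from limma). Clec2e, a member of the NKR-P1 ligand family, was lower, with 5.52 and 5.03 in CCSP-p52 LPS against 5.72 and 5.68 in WT LPS (logFC -0.43, standard error 0.17, adjusted p = 0.704 from limma). The pools did not overlap for either gene, both are below the 20th percentile of mean level, and the call of Clec2e was lost in 10 of 18 alternatives, 5 of them the omission of a single pool (either CCSP-p52 dox pool, either WT LPS pool, and pool 2 of CCSP-p52 LPS, where the logFC was -0.18). Clec4b1 fell below the cut-off without WT LPS pool 2 (logFC 0.406). Both calls were thus lost without the pool that stood apart in its striated muscle and squamous epithelium markers.

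**Figure D3:**
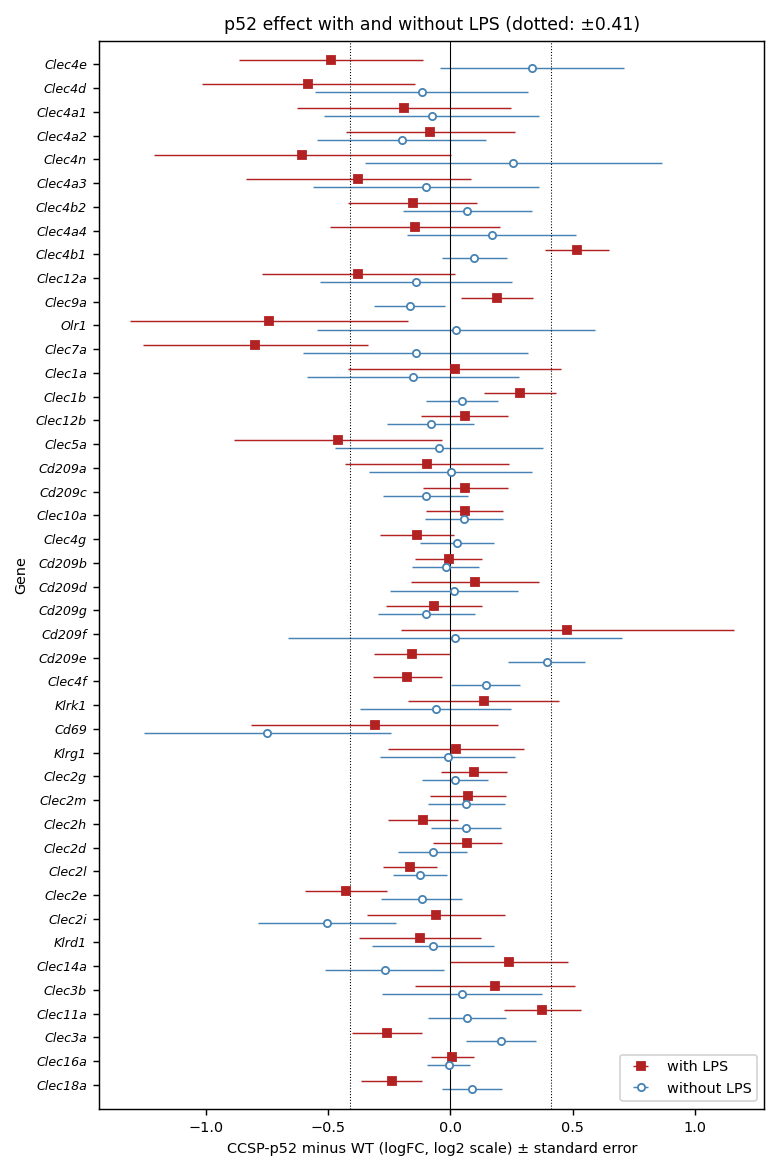
Difference CCSP-p52 minus WT (horizontal axis, logFC on the log2 scale) for each of the 44 genes with LPS (filled squares) and without LPS (open circles), with bars of 1 standard error and dotted lines at a logFC of 0.41 either way. With LPS, Clec4b1 and Cd209f lie right of the dotted lines and Clec7a, Olr1, Clec4n, Clec4d, Clec4e, Clec5a and Clec2e left of them, of which only Clec4b1 and Clec2e met the cut-off, and Cd209f, Clec4n and Olr1 have the widest bars.

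Over all probe sets tested, same-numbered pools tended to deviate in the same direction (r = 0.14 to 0.35 between groups), though not in every member. With 2 pools per group this cannot show that they were paired. The comparison was repeated with the pool number as a replicate block. In the additive model 2 members then reached the cut-off, Cd69 (logFC -0.53) and Clec7a (-0.47), against 0.313% of all genes. Without LPS there were 2, Cd69 (-0.75) and Clec2i (-0.51), against 0.919%, and with LPS 5, Clec4b1 and Clec2e as before with Clec7a (-0.80), Olr1 (-0.74) and Clec4n (-0.61), against 2.39%. None of these had an adjusted p under 0.05 (0.538 to 1.00 from limma). Cd69 had 7.05 and 6.85 in CCSP-p52 dox against 8.05 and 7.35 in WT dox, and Clec7a 10.06 and 8.86 in CCSP-p52 LPS against 10.46 and 10.05 in WT LPS. A single pool bore on the comparison with LPS: without CCSP-p52 LPS pool 1, 18 members were at the cut-off, where 14.8% of all genes were. Those higher in CCSP-p52 were Cd209f (1.42), Clec3b (0.75), Clec1a (0.72), Clec14a (0.65), Clec4b1 (0.47) and Clec1b (0.45). The others were lower, among them Clec4d (-1.33), Clec4e (-1.10), Clec5a (-1.10) and Clec7a (-1.40). CCSP-p52 LPS was then represented by pool 2 alone.

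The difference in the LPS effect between the genotypes was tested directly, and 0 members (and 0 of all genes) had an adjusted p under 0.05 for it. At an unadjusted p under 0.05 there was 1 member, Cd209e, where 5.02% of all genes were. The LPS effect of Clec4e was 5.37 in CCSP-p52 and 6.19 in WT lungs (standard error 0.38 each), a difference of -0.82 with a 95% interval of -2.09 to 0.44. For Cd209a it was -2.86 in CCSP-p52 and -2.76 in WT lungs (standard error 0.33 each), a difference of -0.10 with an interval of -1.22 to 1.03. Both genotypes showed the response of these genes in the same direction, with wide intervals for the difference. Within a genotype these ranks held only in part. The largest rise of any gene was 5.38 in CCSP-p52 and 6.40 in WT lungs, in both above that of Clec4e, and Cd209a had the largest fall in CCSP-p52 but not in WT lungs, where the largest of any gene was -2.94 and that of Cd209a -2.76. Of the 17 genes that rose, 11 had the smaller effect in CCSP-p52 lungs, as had 7 of the 9 that fell and 14 of the 18 that did not pass. The same count over all genes was not made, so it is not read as a trait of the family. All 17 raised genes were lower in CCSP-p52 LPS pool 2 than in pool 1.

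**Figure D4:**
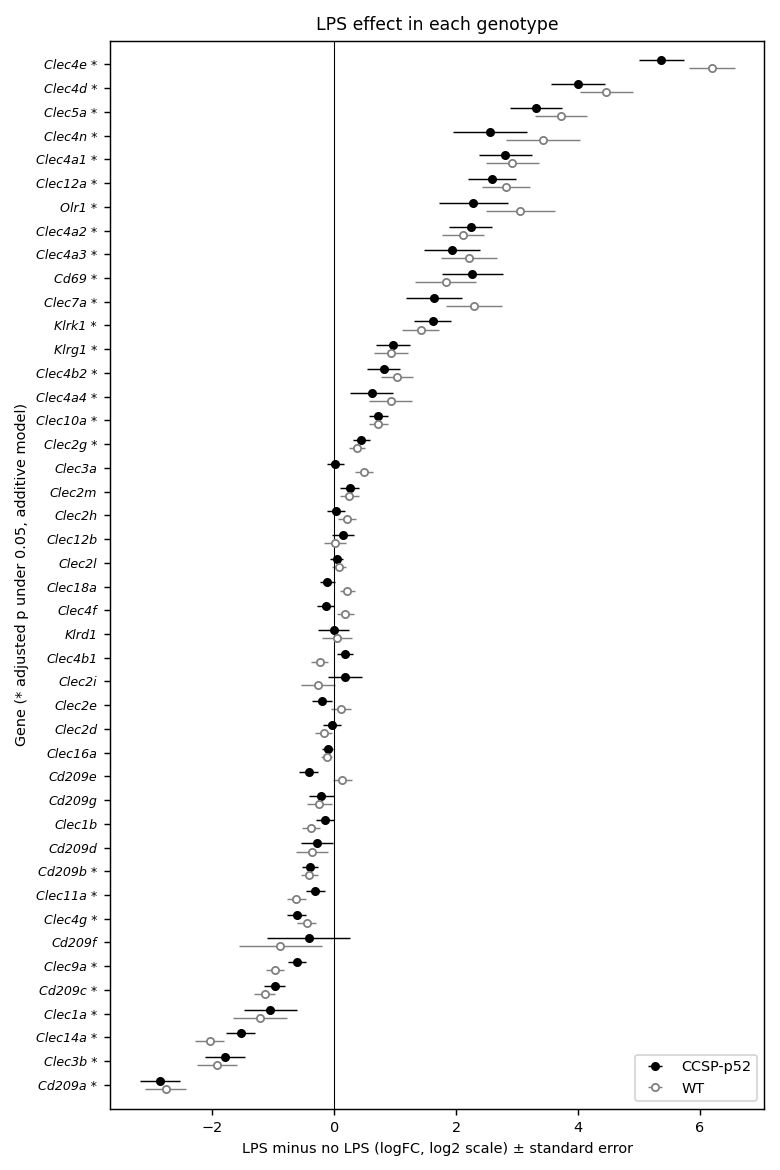
LPS effect (horizontal axis, logFC of LPS minus no LPS on the log2 scale) of the 44 genes, in the order of their additive effect, in CCSP-p52 (filled) and WT lungs (open), with bars of 1 standard error. From Cd209a at the bottom to Clec4e at the top, both markers lie on the same side of 0 for each of the 26 genes with a star.

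The pools of the LPS groups differed in these genes. All 17 raised genes were lower in CCSP-p52 LPS pool 2 than in pool 1, by a median of 1.20 log2 units, and 15 of 17 were lower in WT LPS pool 2 than in pool 1, by a median of 0.49. In the groups on dox alone 16 of 17 in CCSP-p52 (median 0.26) and 14 of 17 in WT (median 0.55) were lower in pool 2 as well. These counts were not made over all genes, so a trait of the family and a difference of the whole pool cannot be told apart. Of the 9 genes that fell after LPS, 8 were higher in CCSP-p52 LPS pool 2 than in pool 1 and 7 were higher in WT LPS pool 2. On dox alone, 4 of the 9 were higher in pool 2 in CCSP-p52 and 2 in WT. Markers of monocytes and recruited macrophages summed to 16518 in CCSP-p52 LPS pool 1 and 8004 in pool 2, and to 16044 and 12798 in the WT LPS pools. The endothelial markers summed to 15460 and 24027 in the CCSP-p52 LPS pools and 16895 and 18755 in the WT LPS pools.

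**Figure D5:**
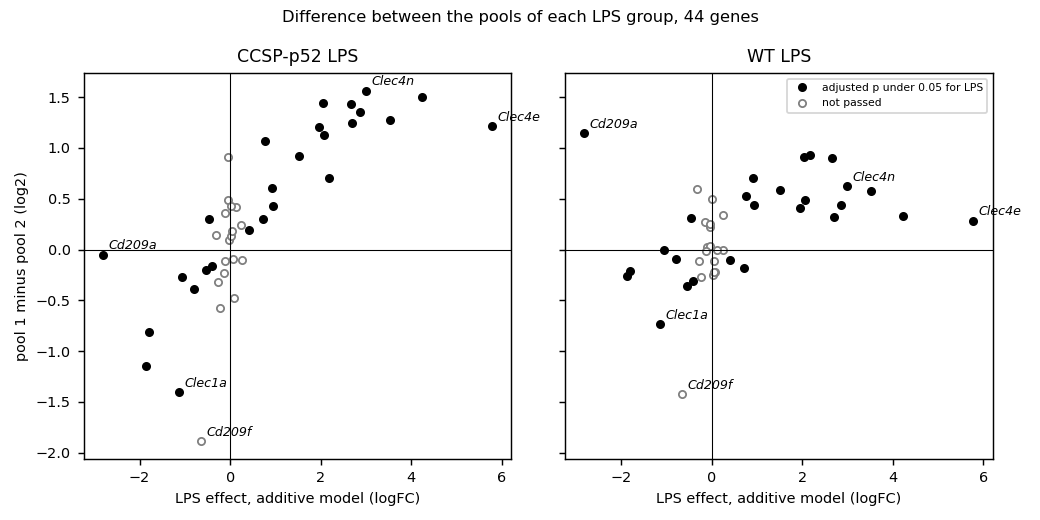
Difference of pool 1 minus pool 2 (vertical axis, log2) against the LPS effect of the additive model (horizontal axis, logFC) for the 44 genes in CCSP-p52 LPS (left) and WT LPS (right), filled where the LPS effect passed. In CCSP-p52 LPS all the raised genes lie above 0, and the differences reach 1.56 in Clec4n and -1.89 in Cd209f.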

How the data were processed

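The 8 arrays were Affymetrix Mouse Gene 1.0 ST, each hybridised with whole lung RNA pooled from 3 mice. The values analysed are log2 expression per probe set as deposited, which the authors computed by the Robust Multichip Average (R package oligo): background correction, normalization of all arrays to 1 distribution, and a summary over probes. In the submitters' processing notes limma 3.20.8 is named as well. Equal distributions remove differences in total RNA between lungs, levels of different probe sets were not compared, and the number of arrays limits the precision.

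Probe sets were named through the platform's table, in which 21218 of 35556 have 1 symbol, 1881 several and 12457 none. Whether it is of the array's 1.0 version was not settled. Probe sets with 1 symbol were fitted with limma 3.58.1 in R 4.3.3, by the additive model of p52 and LPS that the study's methods describe and by a 4-group model for p52 with and without LPS, LPS by genotype and their difference. LPS calls took an adjusted p (Benjamini-Hochberg, every fitted probe set) under 0.05, and p52 calls a logFC of at least 0.41 in size (the study's value for higher genes) with an unadjusted p of at most 0.05, the level that its statistics section calls significant. The steps were tested on simulated data. With each group centred on its mean, pools of one number correlated between groups (r = 0.14 to 0.35 in 6 comparisons of groups). These correlations cannot show that pools of one number were paired. The fit with the pool number as a replicate block assumes such pairing, on the values alone, and the main fits do not.

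The members, role lists, pathway lists and markers were chosen with earlier results of these data known. Genes were named by rule: in each role list up to 6 by the lowest p of the LPS effect, members at the p52 cut-off or with a difference between genotypes, the 3 with the widest WT LPS pools, and up to 4 of each pathway list. Clec4b2, Clec4a4, Clec12b, Cd209e, Cd209g, Klrd1, Clec2d, Clec2i, Clec18a, Syk, Bcl10, Card9 and single cell markers were named after their values were seen. Alternatives varied the probe sets tested, the probe set that stands for a gene, the model, the moderation, array weights, centring, normalization, the block and the thresholds, and left out each array or both second LPS pools.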

Additional observations from a re-analysis of the deposited data

Results flagged for a closer look

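Clec3a was the 1 member whose CCSP-p52 and WT pools were separated in both LPS states and in opposite directions. Fitted p52 effects of opposite sign were found in other members too. The difference was larger in size in Clec4n (-0.86), Clec4e (-0.82), Olr1 (-0.77), Cd209e (-0.55) and Clec14a (0.51). Clec3a had 6.57 and 6.67 in CCSP-p52 LPS against 7.05 and 6.71 in WT LPS (logFC -0.26). On dox alone it had 6.50 and 6.70 in CCSP-p52 against 6.30 and 6.48 in WT (logFC 0.21). The genotypes did not overlap in either state. How often such a separation occurs among all genes was not counted, and each group had 2 pools. It is therefore not read as a trait of Clec3a or of the family. The mean log2 value of Clec3a was 6.62, near the 26th percentile of mean level. The difference of the p52 effect with LPS minus without LPS was -0.47 (standard error 0.20, adjusted p = 0.913 from limma), which did not pass. Clec3a encodes a cartilage-derived lectin.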

How the results depend on the processing

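No called effect of a named gene changed direction under any of the 19 alternatives. The count of genes that rose after LPS stayed at 15 to 18 except at a logFC of at least 1 (12), and that of genes that fell at 7 to 12 except there (5). Single arrays left out gave 16 to 18 higher and 7 to 12 lower, the 12 without CCSP-p52 LPS pool 2, where Cd209f, Cd209g and Clec1b were gained (and Clec2h as higher). Clec2m was gained as higher without CCSP-p52 dox pool 2 (0.34). For p52 in the additive model, the main 0 became 2 with the replicate block, 1 (Cd69) with array weights or without both second LPS pools, and 0 to 3 with single arrays left out, the 3 being Cd69, Clec2i and Clec4d without CCSP-p52 LPS pool 1. Without LPS the main 0 became 2 with the block or without both second LPS pools, 1 with array weights (Clec2i) or centring on the median (Cd209e), and 0 to 1 with single arrays left out. With LPS the main 2 became 5 with the block, 1 with array weights or renewed quantile normalization, 0 with dim probe sets left out, where neither gene is tested, 0 at an adjusted p under 0.05, and 1 to 18 with single arrays left out. The block changed no other call but Cd209d (lower after LPS). The count of genes whose LPS effect differed between genotypes stayed at 0 throughout, and 7 of the 44 members were below the 20th percentile of mean level. Apart from the dim probe sets the cause was not tested. A fit that leaves 1 pool in a group assumes that it varies like the other groups.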
